A study of Homo sapiens with 2 samples.

Results

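Small RNA host genes are long transcripts that carry small nucleolar RNAs (snoRNAs) or microRNAs (miRNAs) inside them. They were taken by name from the deposited table as every gene called SNHG and a number, every gene called MIR, a number and HG, and also GAS5 and MIRLET7BHG. This gave 88 of 58735 genes, 26 of the SNHG and GAS5 kind and 62 of the MIRHG kind. The rule itself uses names and no measured value, but it was chosen with earlier results of these data known. The 88 rows hold 87 names, because SNHG28 stands for a protein-coding row and for a lincRNA row.

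Expression was measured by RNA sequencing of total RNA from U87MG, an established human glioblastoma line, kept for 1 week in stem cell medium and labelled as glioma spheres. By its label, the library labelled TRIP13 shRNA came from cells infected with a lentivirus carrying an shRNA against TRIP13, and the control shRNA library, again by its label, from cells infected with pGIPZ-CTRL. Both were selected with puromycin as stable clones, and how many clones went into a library is not given in the sources used here. Each group held 1 library, so there was no replicate error and no test, and every difference below is one between these libraries. TRIP13, an AAA+ ATPase of the spindle checkpoint, had 23.1 FPKM in the library labelled TRIP13 shRNA (1593 reads), against 11.9 FPKM in the control library (819 reads), which goes against its label, so each direction is one between libraries as labelled, and whether the labels were exchanged was not tested.

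FPKM (fragments per kilobase of gene, scaled by library size) times gene length gave whole reads, 19903836 in the library labelled TRIP13 shRNA, against 18871063 in the control library. The deposited values carry no correction for this depth ratio of 1.05. Of the glial markers, VIM had 427 against 442 FPKM, CD44 112 against 115 FPKM, NES 2.21 against 5.23 FPKM and OLIG2 0.339 against 2.72 FPKM. The stem cell markers SOX2 (1 against 2 reads) and PROM1 (1 against 5 reads) were near 0 in both libraries, GFAP had 28 against 92 reads and S100B 4 against 0. Of 8 glial and sphere markers 4 passed the filter used below, with 0 of them above 0 on the log2 scale. Summed reads of markers of other cells were 154 against 826 for fibroblasts (LUM at 2.08 against 7.55 FPKM, DCN at 0.133 against 1.55) and 7 against 126 for endothelium. They were 499 against 667 for neurons and 336 against 396 for microglia, with AIF1 at 0 in both libraries. Most of these reads were of 1 gene each, SNAP25 (386 against 407) for neurons and CSF1R (330 against 374) for microglia, both with intervals that include 1. The interval of SNAP25 also included the depth ratio, and that of CSF1R (0.759 to 1.03) lay below it. Each of the marker sums for other cells was lower in the library labelled TRIP13 shRNA, and their part in the results was not tested. As U87MG is a cell line, reads of these markers are not taken to show that such cells were present. In bulk RNA, fewer cells of a type and less RNA per cell cannot be told apart.

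Most human snoRNAs are cut out of introns after splicing, and the exons of an SNHG transcript are what is left of that process. Box C/D snoRNAs guide ribose methylation of ribosomal RNA with fibrillarin, and box H/ACA snoRNAs guide pseudouridylation with dyskerin. Several of these hosts, GAS5 among them, are known to start with a pyrimidine tract like that of ribosomal protein mRNAs, and their spliced RNA is known to be removed by nonsense-mediated decay. A MIRHG transcript is the primary transcript that DROSHA and DGCR8 cut to release miRNA hairpins, so the level of its exons is not the level of the mature miRNA.

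The miRNAs carried by the hosts with the clearest differences, and by the MIR17HG and MIRLET7BHG clusters, are shown to tell apart which targeting sequences each host encodes. The sequences are from RefSeq (GRCh38.p14), 5′ to 3′, and capitals mark the seed, bases 2 to 8, which pairs with target mRNAs. They lie in MIR3681HG, MIR100HG and MIRLET7BHG, then in MIR222HG, MIR34AHG, MIR210HG, MIR22HG, MIR155HG and MIR17HG.
miR-3681-5p: uAGUGGAUgaugcacucugugc
miR-3681-3p: aCACAGUGcuucauccacuacu
miR-100-5p: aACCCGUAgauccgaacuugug
miR-125b-5p: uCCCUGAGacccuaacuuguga
let-7a-5p: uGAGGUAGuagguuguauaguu
let-7b-5p: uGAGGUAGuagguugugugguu
miR-221-3p: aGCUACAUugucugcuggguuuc
miR-222-3p: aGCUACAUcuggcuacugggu
miR-34a-5p: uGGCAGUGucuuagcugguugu
miR-210-3p: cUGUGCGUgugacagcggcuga
miR-22-3p: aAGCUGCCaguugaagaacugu
miR-155-5p: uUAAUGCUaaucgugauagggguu
miR-17-5p: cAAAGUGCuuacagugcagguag
miR-20a-5p: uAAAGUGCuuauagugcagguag
miR-18a-5p: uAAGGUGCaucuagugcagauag
miR-19a-3p: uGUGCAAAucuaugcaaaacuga
miR-19b-3p: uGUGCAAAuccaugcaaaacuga
miR-92a-3p: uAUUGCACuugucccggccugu
The let-7a sequence lies in both MIR100HG and MIRLET7BHG and shares its seed with let-7b of MIRLET7BHG. The pair in MIR222HG shares 1 seed, and in MIR17HG miR-17 and miR-20a share 1 and miR-19a and miR-19b another. The sequence of miR-125b also lies in MIR99AHG on chromosome 21. Mature sequences were matched for all 13 miRNA hosts with a mean FPKM of 1 or more.

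Host genes of snoRNAs were mostly higher in the library labelled TRIP13 shRNA, SNHG1 the most. The strongest differences among miRNA hosts were lower, in MIR3681HG and MIR100HG. MIR3681HG, at 0.399 FPKM against 3.21 in the control library, passed the mean FPKM filter used here only through its control value. Of the 88 members, 31 had a mean FPKM of 1 or more over both libraries, 18 SNHG and GAS5 genes and 13 MIRHG genes. Genes are compared as the log2 ratio of FPKM + 1, library labelled TRIP13 shRNA over control, which understates differences of weakly expressed genes, and values of at least 1 and at most -1 are called 2-fold higher and lower. By this rule 1 of the 31 was higher, against 2.50% of all 13128 genes past the same filter, and 2 were lower, against 5.61%. Both shares are small counts near the background, and nothing about the hosts as a whole is read from them. Among long noncoding genes past the filter, 2.39% were called higher and 10.2% lower.

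Of the 18 snoRNA hosts, 16 had a log2 ratio above 0, against 56.9% of all genes and 38.1% of long noncoding genes past the filter. Their median log2 ratio was 0.44, beside 0.09 for all genes and -0.16 for the other long noncoding genes. Of the 13 miRNA hosts, 6 lay above 0, with a median of -0.07. Passing the filter needed a high value in 1 library only for MIR3681HG and MIR4458HG, each of which had under 1 FPKM in the other.

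Summed over all 26 rows, SNHG and GAS5 genes held 19137 reads in the library labelled TRIP13 shRNA, against 13709 in the control library, 0.0961% and 0.0726% of their totals. Their summed ratio was 1.40 (95% exact counting interval 1.37 to 1.43), and 1.33 without SNHG1. The 62 MIRHG rows held 5827 reads in the library labelled TRIP13 shRNA, against 8721 in the control library, a ratio of 0.668 (0.646 to 0.691). Without MIR100HG the ratio was 0.892 (0.857 to 0.929). All intervals are exact (Clopper-Pearson) and show counting error alone, as no molecular identifiers are named and several reads may come from 1 molecule.

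**Figure D1:**
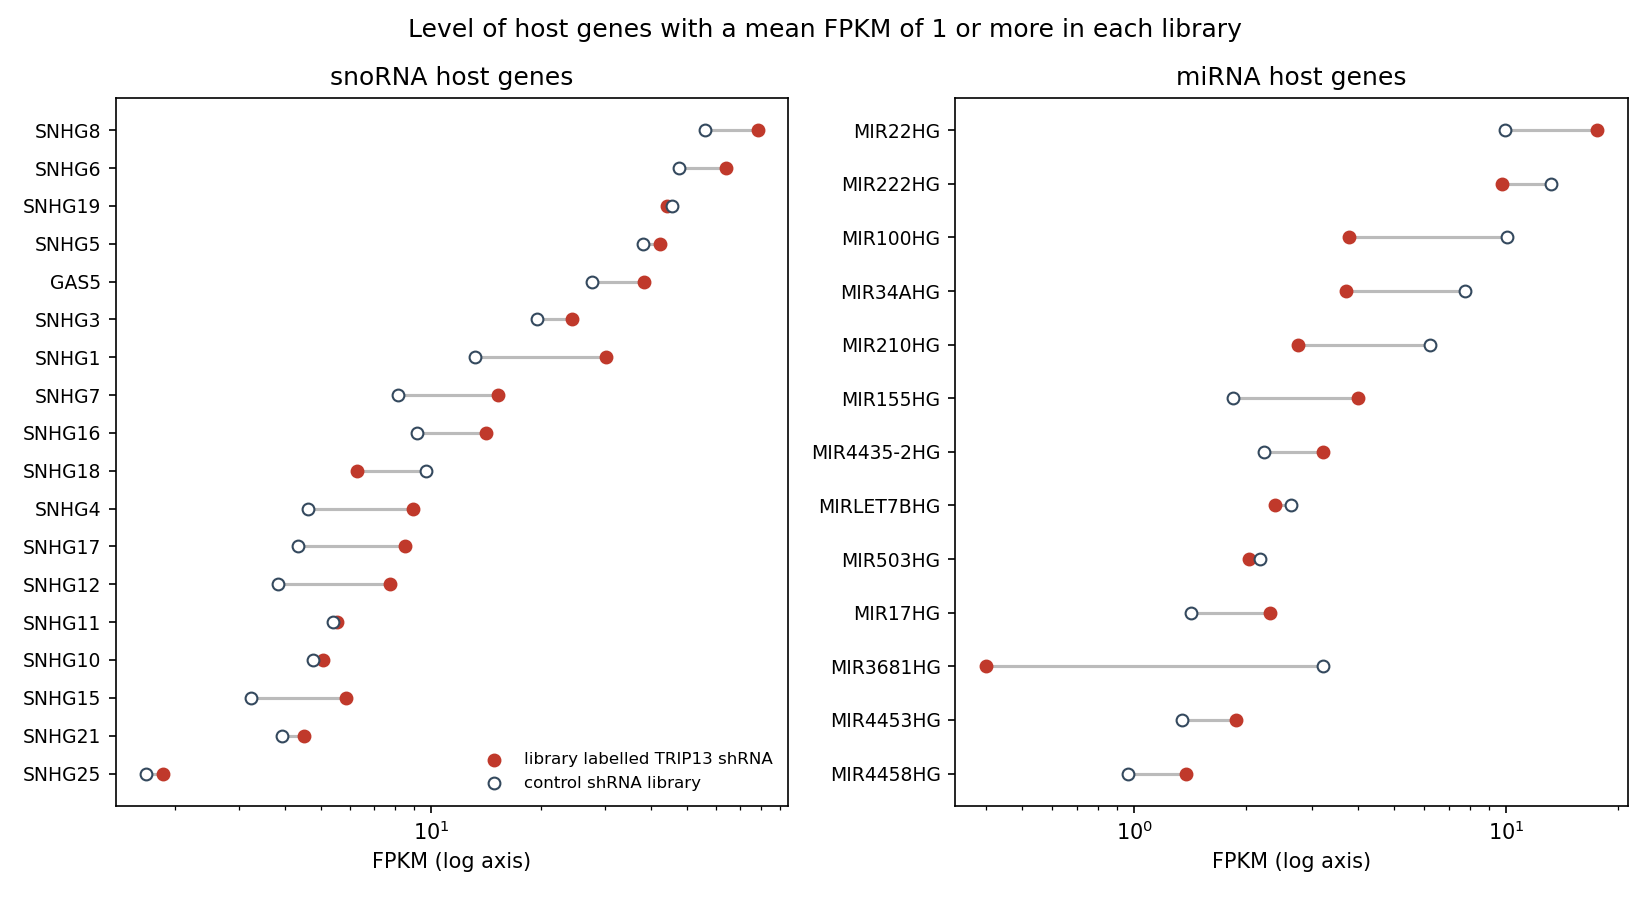
FPKM (log axis) of the 31 host genes with a mean of 1 or more, filled points for the library labelled TRIP13 shRNA and open points for the control library, 1 library each, with snoRNA hosts left and miRNA hosts right. The filled point lies to the right of the open point for 16 of 18 snoRNA hosts and for 6 of 13 miRNA hosts.

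The 6 hosts with the highest mean FPKM were all of the SNHG and GAS5 kind, and their ratios ran from 0.970 to 1.39. SNHG8, host of the H/ACA RNA SNORA24, was the highest at 78.1 FPKM in the library labelled TRIP13 shRNA, against 56.1 in the control library, a ratio of 1.39 (1.28 to 1.51). SNHG6, host of SNORD87, had 64 against 47.5 FPKM, a ratio of 1.35 (1.25 to 1.45). Other genes, on either strand, overlap 36.4% of the SNHG6 exons, and the counting could have dropped or mixed in their reads. SNHG19, host of SNORD60, had 44.2 against 45.6 FPKM from 293 against 302 reads, a ratio of 0.970 (0.823 to 1.14), so no difference was detectable at this depth. SNHG5, host of the C/D RNAs of the U50 family, had 42.4 against 38 FPKM, and its ratio of 1.11 (1.05 to 1.18) included the depth ratio. GAS5, named for its rise in growth-arrested cells and host of 11 snoRNAs in the RefSeq annotation, had 38.2 against 27.6 FPKM, from 2686 against 1943 reads. Its ratio was 1.38 (1.30 to 1.47), above the depth ratio. SNHG3, host of the H/ACA pair SNORA73A and SNORA73B, had 24.3 against 19.5 FPKM, a ratio of 1.24 (1.16 to 1.33).

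SNHG1 (ENSG00000255717, hg38 chromosome 11, 62851988 to 62855914, minus strand) was the 1 host past the 2-fold rule on the higher side. It carries the C/D snoRNA cluster from SNORD22 to SNORD30, whose 7 rows in the table each overlap an exon of at least 1 annotated SNHG1 isoform. It had 30 FPKM in the library labelled TRIP13 shRNA, against 13.2 in the control library, from 2185 against 964 reads, a ratio of 2.27 (2.10 to 2.45) and a log2 ratio of 1.12. A set of 4 hosts followed just below the rule, each near 2-fold in FPKM and held under it by the added 1 FPKM or by a slightly smaller ratio. SNHG12, with the H/ACA RNAs SNORA44, SNORA61 and SNORA16A and the C/D RNA SNORD99, had 7.75 against 3.83 FPKM, a ratio of 2.02 (1.76 to 2.32). SNHG17, host of the SNORA71 family, had 8.49 against 4.34 FPKM, a ratio of 1.96 (1.72 to 2.23). SNHG4, host of SNORA74A, had 8.92 against 4.61 FPKM, a ratio of 1.94 (1.71 to 2.19). All of these lay in the same direction with intervals clear of the depth ratio. SNHG7, host of the SNORA17 pair, had 15.2 against 8.15 FPKM, a ratio of 1.87 (1.70 to 2.06), with 31.4% of its exon length shared with other genes. SNHG15, host of SNORA9, had 5.87 against 3.23 FPKM, a ratio of 1.82 (1.54 to 2.15). SNHG16, host of SNORD1A, SNORD1B and SNORD1C, had 14.2 against 9.15 FPKM, a ratio of 1.55 (1.42 to 1.68), with 33.4% of its exon length shared.

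Below 0 among the 18 snoRNA hosts past the filter lay SNHG18 and SNHG19, and of these SNHG18 had an interval below the depth ratio. It holds SNORD123 and had 6.29 FPKM in the library labelled TRIP13 shRNA, against 9.71 in the control library, from 238 against 367 reads, a ratio of 0.649 (0.549 to 0.765). Cajal body RNAs guide modification of spliceosomal RNAs, and the 2 hosts of such RNAs past the filter had intervals that include the depth ratio. SNHG10, host of SCARNA13, had 5.07 against 4.78 FPKM, a ratio of 1.06 (0.861 to 1.31), and SNHG21, host of SCARNA15, had 4.51 against 3.92 FPKM, a ratio of 1.15 (0.843 to 1.57). Exons of both overlap those of other genes on either strand, for SNHG21 over 72.9% of its exon length. SNHG11, host of SNORA60 and SNORA71E, had 5.54 against 5.39 FPKM, a ratio of 1.03 (0.872 to 1.21). The log2 ratios of SNHG10 and SNHG11, 0.07 and 0.03, turned below 0 under rescaling to TPM and with the median ratio set to 1. SNHG25 passed the filter from 10 against 9 reads only, as its exons span 278 bases.

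**Figure D2:**
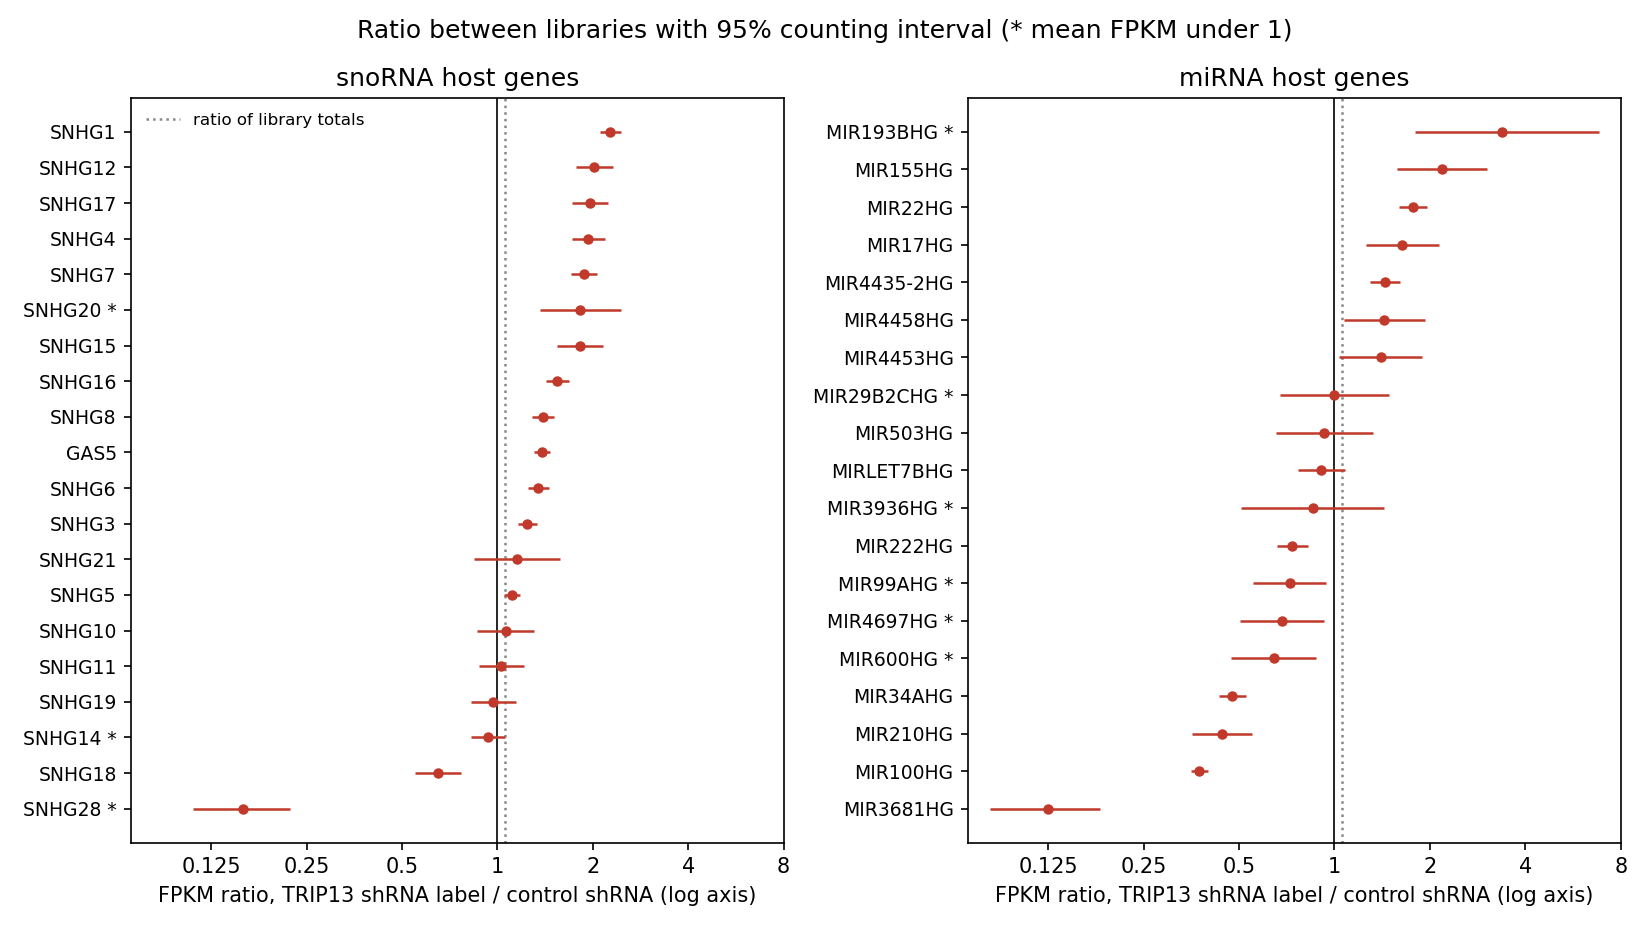
FPKM ratio of the library labelled TRIP13 shRNA over the control library (log axis) for the 39 host genes with 50 or more reads over both libraries, with 95% exact counting intervals, snoRNA hosts left and miRNA hosts right. The solid line marks 1 and the dotted line the depth ratio of 1.05. Intervals lie above the dotted line for 12 of 20 snoRNA hosts and 6 of 19 miRNA hosts, and below it for 2 and 8.

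At this depth, intervals that hold counting error alone lay off the depth ratio for many genes. Of 13915 genes of any kind with 50 or more reads, 36.8% had a counting interval above the depth ratio and 35.3% one below it. Among the 39 hosts with as many reads, 18 lay above and 10 below. The 20 snoRNA hosts split into 12 above and 2 below, and the 19 miRNA hosts into 6 above and 8 below. By a read ratio of 2 or more, 4 of the 39 were higher, SNHG1, SNHG12, MIR155HG and MIR193BHG, against 4.78% of all genes. By a ratio of 0.5 or less, 5 were lower, SNHG28, MIR3681HG, MIR100HG, MIR210HG and MIR34AHG, against 9.97%.

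The start of a host is shown because a C at the first base followed by pyrimidines is the mark of a 5′ terminal oligopyrimidine (TOP) transcript. Windows of 60 bases from RefSeq (GRCh38.p14) are printed 5′ to 3′ on the gene's strand, 30 before the annotated start and 30 from it on. Capitals mark an unbroken run of C or T that begins with C at the start base and has 5 or more bases. SNHG1, the host with the largest ratio among those past the filter, is given beside the 5 snoRNA hosts past the filter that hold such a run.
SNHG4: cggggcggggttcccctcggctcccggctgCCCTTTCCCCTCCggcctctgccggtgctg
SNHG12: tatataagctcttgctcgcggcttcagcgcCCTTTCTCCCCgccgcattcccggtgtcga
SNHG5: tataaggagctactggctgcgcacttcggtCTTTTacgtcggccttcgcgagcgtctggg
SNHG19: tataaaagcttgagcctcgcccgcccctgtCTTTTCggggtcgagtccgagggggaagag
SNHG18: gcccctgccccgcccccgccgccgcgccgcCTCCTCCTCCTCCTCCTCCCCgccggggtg
SNHG1: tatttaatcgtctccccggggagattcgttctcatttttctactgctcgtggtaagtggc
They lie at chr5:139274071-139274130 (plus strand), chr1:28581844-28581903 (minus), chr6:85678704-85678763 (minus), chr16:2155329-2155388 (minus), chr5:9546170-9546229 (plus) and chr11:62855856-62855915 (minus). RefSeq promoters were matched for 68 member names. Such a run stood at the start of 5 of the 15 snoRNA host promoters past the filter and of 0 of 18 promoters of the 13 miRNA hosts past it. SNHG6, SNHG15 and SNHG25 were not matched. GAS5 was among the hosts with no run at the start in the RefSeq table, which lies 163 bases from its start in the deposited table. Of all 35116 promoters 4.07% held one, and of 79 promoters of cytosolic ribosomal protein genes 59.5%. The 5 hosts with a run covered the range of ratios, from 2.02 for SNHG12 and 1.94 for SNHG4 through 1.11 for SNHG5 and 0.970 for SNHG19 to 0.649 for SNHG18. SNHG1 holds a run of T a few bases into its transcript, which the search did not take, and the RefSeq start of SNHG12 lies 1259 bases inside the start in the deposited table.

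MIR100HG (ENSG00000255248, hg38 chromosome 11, 122028327 to 122556721, minus strand) was the lower miRNA host with the most reads. It is the primary transcript of miR-100, let-7a and miR-125b. It had 3.77 FPKM in the library labelled TRIP13 shRNA, against 10.1 in the control library, from 1416 against 3777 reads, a ratio of 0.375 (0.352 to 0.399) and a log2 ratio of -1.21. MIR3681HG, a lincRNA on chromosome 2 that holds MIR3681, had 0.399 against 3.21 FPKM, from 30 against 241 reads. Its ratio of 0.124 (0.0822 to 0.182) was the lowest of the hosts with 50 or more reads.

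MIR210HG and MIR34AHG had FPKM ratios under 0.5, though inside the 2-fold rule with 1 FPKM added and no correction for depth. MIR210HG, host of miR-210, a miRNA known to be induced by hypoxia, had 2.76 FPKM in the library labelled TRIP13 shRNA, against 6.22 in the control library, a ratio of 0.443 (0.356 to 0.549). MIR34AHG, host of miR-34a, a known p53 target, had 3.7 against 7.77 FPKM from 624 against 1310 reads, a ratio of 0.476 (0.432 to 0.524). MIR222HG, whose miR-221 and miR-222 repress the cell cycle inhibitor CDKN1B, had 9.71 against 13.2 FPKM, a ratio of 0.737 (0.657 to 0.826). The intervals of all of these lay below 1.

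On the higher side stood MIR155HG, MIR22HG, MIR17HG and MIR4435-2HG. MIR155HG, host of miR-155, a miRNA of immune activation, had 4 FPKM in the library labelled TRIP13 shRNA, against 1.84 in the control library, from 124 against 57 reads, a ratio of 2.18 (1.58 to 3.03). MIR22HG, the miRNA host with the highest mean FPKM over both libraries, had 17.5 against 9.9 FPKM, a ratio of 1.77 (1.60 to 1.96). MIR17HG, a known MYC target with 6 miRNA hairpins of the miR-17 to miR-92a cluster, had 2.32 against 1.42 FPKM, from 157 against 96 reads. Its ratio was 1.64 (1.26 to 2.13). MIR4435-2HG had 3.21 against 2.23 FPKM, a ratio of 1.44 (1.29 to 1.60). MIR4453HG had 1.87 against 1.34 FPKM, with an interval (1.04 to 1.89) that included the depth ratio, and MIR4458HG had 1.38 against 0.963 FPKM.

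Hosts that hold miRNAs of the same seed had unlike ratios. MIRLET7BHG, which holds let-7a and let-7b, had 2.4 FPKM in the library labelled TRIP13 shRNA, against 2.64 in the control library, a ratio of 0.908 (0.766 to 1.08) with no detectable difference. MIR100HG, the other let-7a host shown, had the ratio of 0.375 given above. MIR99AHG, which like MIR100HG holds miR-125b, and which also holds MIR99A and MIRLET7C, had 0.464 against 0.641 FPKM, below the filter. Its ratio was 0.723 (0.555 to 0.940), with an interval below the depth ratio as for MIR100HG. MIR503HG had 2.03 against 2.18 FPKM from 66 against 71 reads, with no detectable difference.

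Below the filter were 57 members, of which 23 had 0 reads in both libraries and 34 had some. For the 2 members just inside and outside the filter, mean FPKM was 1.17 for MIR4458HG and 0.934 for MIR4697HG. Of the 34, 9 had 50 or more reads. The protein-coding row SNHG28 had 39 reads in the library labelled TRIP13 shRNA, against 247 in the control library, a ratio of 0.158 (0.110 to 0.222), and it shares 55.5% of its exon length with other genes. The lincRNA row of that name lies wholly inside exons of other genes and is listed at 0. MIR193BHG, host of miR-193b and miR-365a, had 44 against 13 reads, a ratio of 3.38 (1.79 to 6.85), and SNHG20, host of the Cajal body RNA SCARNA16, had 135 against 74 reads, a ratio of 1.82 (1.36 to 2.46). SNHG14, the long imprinted transcript of chromosome 15 that carries the SNORD116 and SNORD115 arrays, had 501 against 536 reads. Its ratio was 0.935 (0.826 to 1.06), with no detectable difference. MIR600HG (72 against 112 reads) and MIR4697HG (76 against 111 reads) were lower, while MIR29B2CHG had 55 reads in each. MIR3936HG had 30 against 35 reads. MIR31HG, on chromosome 9 close to the CDKN2A gene, had 0 reads in both, which allows up to 0.208 FPKM. Its neighbours CDKN2A (1 against 2 reads), MTAP (0 against 3) and CDKN2B (0 in both) were near 0 as well.

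Small RNAs inside most hosts have rows of their own, and these were nearly empty. Of 228 rows for snoRNAs, Cajal body RNAs and miRNAs that lie inside a member on its strand, 189 had 0 reads in both libraries and 12 had 10 or more. The rows stand for 227 genes, as RF00570 lies in both SNHG28 rows. SNHG14, below the filter, holds 84 of them. GAS5 holds 0, so its snoRNAs are not covered. All 79 rows that overlap an exon of their host were at 0 in both libraries, and 39 of the 149 rows in introns had reads. The counting could have dropped reads that overlap both a small RNA and a host exon, which was not tested. The 0 values of the exon rows therefore do not show that these small RNAs were absent. Of the 12 fullest rows, 10 lay on the same side as their host, by raw reads with no correction for depth. Several of these rows share a host and are not separate cases, and no share over other rows is given beside this count. In MIR222HG, MIR221 had 28 reads in the library labelled TRIP13 shRNA, against 76 in the control library, a ratio of 0.368 (0.230 to 0.575), and MIR222 had 8 against 17. In MIR100HG, MIR125B1 had 12 against 26 reads, a ratio of 0.462 (0.212 to 0.948), and MIRLET7A2 3 against 7. MIR210 had 1 against 9 reads. All 5 miRNA rows thus held fewer reads in the library in which their host was lower, and 2 of their intervals include 1.

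Of the 7 snoRNA rows with 10 or more reads, 3 were of the SNORA71 family in SNHG17. SNORA71C had 41 reads in the library labelled TRIP13 shRNA, against 20 in the control library, a ratio of 2.05 (1.17 to 3.69), SNORA71A had 21 against 14 and SNORA71B 20 against 9. These family members resemble each other, and the counting could split their reads. SNORA73B in SNHG3 had 38 against 24 reads and SNORD99 in SNHG12 had 12 against 8. The rows on the other side of their host were SNORA60 in SNHG11, with 1 against 11 reads, and SNORD104 in SNHG25, with 37 against 49. SNHG11 itself had 302 against 294 reads and SNHG25 10 against 9, so the side of these hosts is not settled. No small RNA selection is named in the labels' protocols, so these rows are no measure of mature miRNAs or snoRNAs, and reads of unspliced host RNA would be counted in them too.

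**Figure D3:**
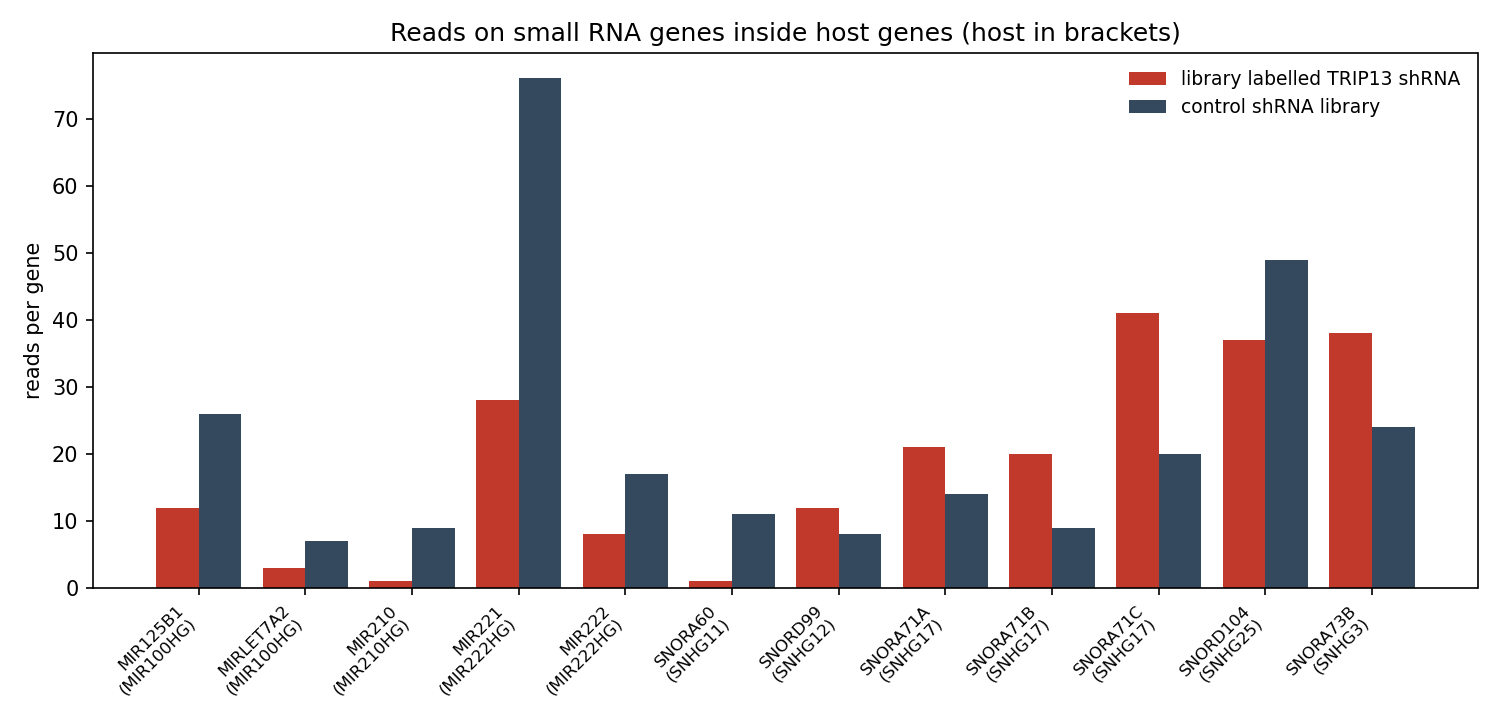
Reads on the 12 small RNA rows with 10 or more reads over both libraries, red bars for the library labelled TRIP13 shRNA and dark bars for the control library, 1 library each, with the host in brackets. The red bar is shorter for all 5 miRNA rows and taller for 5 of 7 snoRNA rows.

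Genes that work with these hosts were described from lists, by counts to be read beside those of all genes. Of all 13128 genes past the filter, 56.9% lay above 0, with a median of 0.09, 2.50% called higher and 5.61% lower. Of 10671 protein-coding genes past it, 60.2% lay above 0, with a median of 0.12, 232 called higher and 447 lower. All 15 snoRNP protein genes past the filter, the enzymes, cores and assembly factors of snoRNA particles, lay above 0 with a median log2 ratio of 0.51, and 1 was called higher. NOP56, a core C/D protein and itself a snoRNA host, had 24.7 FPKM in the library labelled TRIP13 shRNA, against 9.74 in the control library, and NOP58, its partner, had 30.9 against 19.3, while GAR1 of the H/ACA particle had 16.8 against 16. Of 19 nonsense-mediated decay genes, 17 lay above 0 with a median of 0.34 and 1 was called higher, the exon junction protein RBM8A (22 against 10.4 FPKM). The helicase EIF4A3 had 24.3 against 13.5 FPKM, and NBAS had 8.14 against 10.5.

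Of 76 cytosolic ribosomal protein genes past the filter, 74 lay above 0 with a median of 0.28, and 0 were called in either direction. RPL26 had 18.2 FPKM in the library labelled TRIP13 shRNA, against 10.2 in the control library, and RPL3 had 314 against 326. Other TOP genes of translation had a median of 0.16 over 14 genes, with NPM1 at 277 against 205 FPKM and EIF4B at 61.1 against 87.4. Of 203 protein-coding genes that hold a snoRNA or Cajal body RNA row, 152 lay above 0 (74.9%), the median was 0.26, 7 were called higher and 0 lower. PCNA, the replication clamp, was highest at 111 against 42.1 FPKM, and LAMB1, a laminin, was among the lowest at 26.4 against 42.3.

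The 13 miRNA processing and Argonaute genes past the filter had a median log2 ratio of 0.20, with 9 above 0 and 0 called. RAN, which powers export of hairpins by exportin 5, had 141 FPKM in the library labelled TRIP13 shRNA, against 86.9 in the control library. XPO5 itself had 5.69 against 3.49, while the silencing factors TNRC6B and AGO2 had 1.47 against 3.12 and 5.62 against 7.68. Of 656 protein-coding genes that hold a miRNA row, 370 lay above 0 (56.4%), against 60.2% of all protein-coding genes. Their median was 0.09, equal to that of all genes to 2 decimals, beside 0.12 for protein-coding genes. Of the 656, 13 were called higher and 32 lower. UHRF1 had 50.3 against 16.4 FPKM and the laminin LAMA5 0.646 against 13.2 FPKM. The lists have no test, and neither has any difference between them and the hosts.

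**Figure D4:**
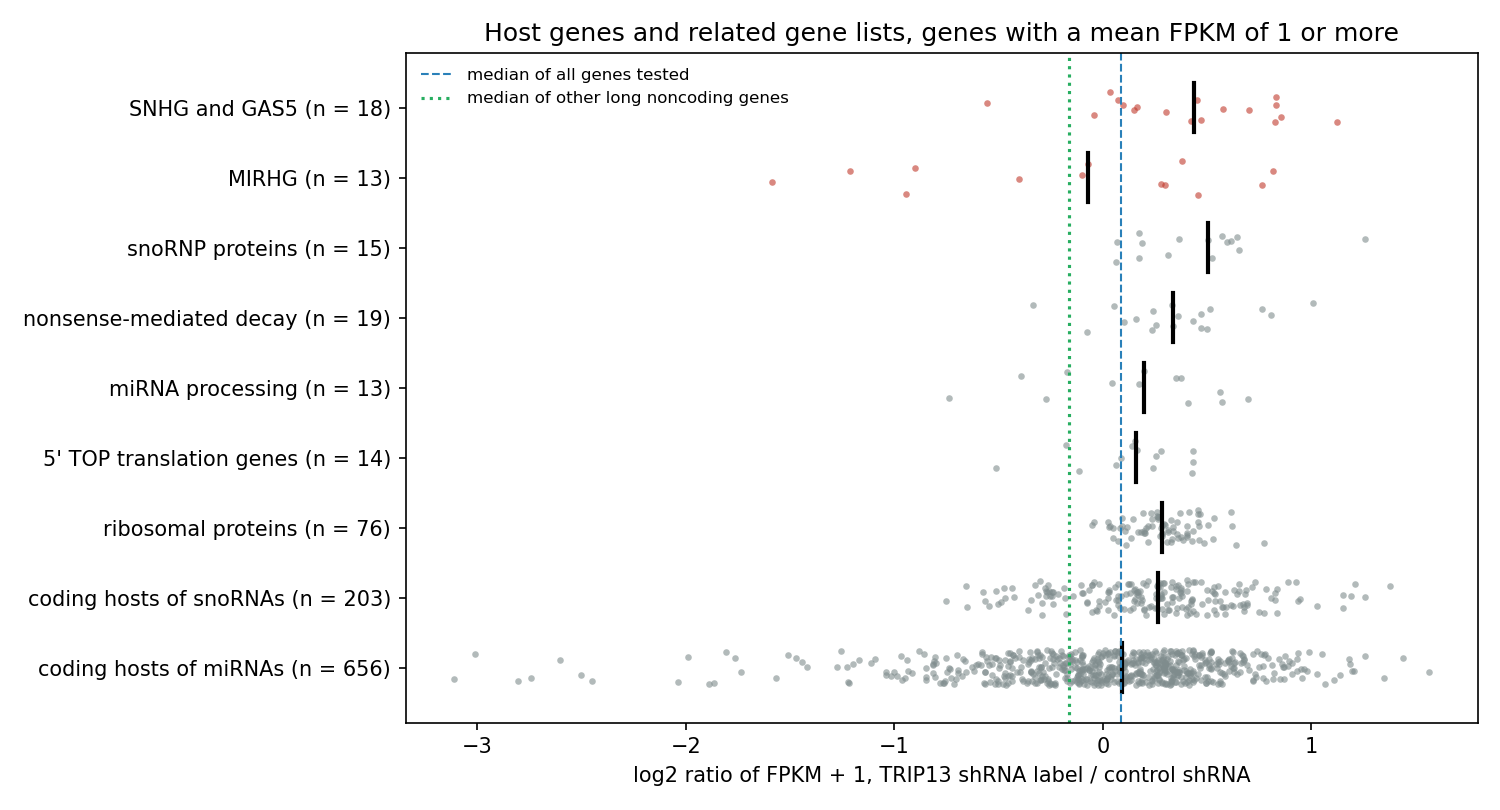
Log2 ratio of FPKM + 1, library labelled TRIP13 shRNA over control library, for each gene past the filter, with host genes in red, related lists in grey and black bars for list medians. The dashed line is the median of all genes (0.09) and the dotted line that of other long noncoding genes (-0.16). The median of the snoRNA hosts is 0.44 and that of the miRNA hosts -0.07.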

How the data were processed

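The authors deposited 1 table of FPKM values for 58735 genes in 2 libraries, 1 per group. Per the submitters' processing notes, HISAT2 2.0.5, featureCounts 1.5.0-p3, edgeR and the hg38 build were involved, with no roles or settings, and the strand setting is not given in the sources used here. Positions and strands of 58735 genes equalled GENCODE release 29, from which shared exon length was computed with exons of other genes on either strand. Gene length is as in the deposited table. FPKM times length was a whole multiple of 51.5981 within 0.001 of a read for 100% of values, so both libraries were divided by a common total of 19380571. Genes whose mean FPKM reached 1 were compared with a pseudocount of 1, with no test. Counts under 3 reads were raised to 3 only in the log2 ratio of recovered reads. The FPKM limit given for a gene without reads is that of 3 reads. Intervals are 95% exact and use the counts as they are. Calculations were tested on simulated data. Members and lists were chosen with earlier results of these data known. Named genes were hosts with a mean FPKM of 1 or with 50 reads, up to 2 at each end of a list, the markers, and MIR31HG with its neighbours. Alternatives were other pseudocounts, filters and scalings, recovered reads, and leaving out hosts that share over 20% of their exons. Work was done in Python 3.11.15 with scipy 1.17.1, pandas 2.3.3, numpy 2.4.6 and matplotlib 3.10.9.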

Additional observations from a re-analysis of the deposited data

How the results depend on the processing

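No paired analysis was possible because 1 library stood for each condition. With 31 hosts past the filter, 1 was called higher and 2 lower. The counts were 2 higher and 4 lower with a pseudocount of 0.1 (4.56% and 8.71% of all genes), and 0 and 0 with a pseudocount of 5 (0.526% and 1.76%). They were 1 and 6 under TPM (4.36% and 12.4%) and 4 and 5 for recovered reads (4.78% and 9.97%), with 1 lower at a mean FPKM of 5 or more (4.76%). The median of the snoRNA hosts, 0.44, was 0.23 with no filter, 0.33 under TPM and 0.33 with the median ratio set to 1. That of the miRNA hosts, -0.07, was 0.00 with no filter, -0.65 at a mean FPKM of 5 or more and -0.31 under TPM. The median of the host genes together, 0.30, was 0.00 with no filter and 0.035 under TPM. TPM moved the median of all genes tested to -0.07, against 0.09 as deposited. The filter values, TPM with 42 hosts and recovered reads with 39 rest on other sets of genes, and recovered reads also on no pseudocount. The cause of the other shifts was not tested. Of 268 alternative values of 32 single genes, TRIP13 included, 230 lay inside a counting interval around the log2 ratio of FPKM + 1, and 38 outside. That interval is not the one printed for FPKM ratios. The log2 ratio of recovered reads of MIR100HG, -1.42, fell outside it, though inside the printed one. SNHG10 and SNHG11 changed side of 0. Depth limits hosts under 50 reads, 49 of 88.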

Other observations

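Some hosts start head to head with a protein-coding gene, on the opposite strand with starts at most 1000 bases apart, and 7 of the 31 hosts past the filter had such a neighbour, a search chosen after seeing the data. Of the 6 neighbours past the filter, 5 lay on the same side of 0 as their host, and no share over other head to head pairs is given beside this count. Of these, FBXW7 and TRAF7 had intervals that include 1, so their side of 0 in the deposited values is not settled. The interval of FBXW7 also included the depth ratio, and that of TRAF7 lay below it. SLC3A2, an amino acid transporter subunit with its start 188 bases from that of SNHG1, had 59 FPKM in the library labelled TRIP13 shRNA, against 41.8 in the control library, a ratio of 1.41 (1.36 to 1.47), where SNHG1 had 2.27. SEMA5A, an axon guidance gene 125 bases from SNHG18, had 2.02 against 6.22 FPKM, a ratio of 0.325 (0.292 to 0.361), in the same direction as SNHG18. ZBTB37, 800 bases from GAS5, was the exception at 1.19 against 2.49 FPKM, a ratio of 0.478 (0.426 to 0.536), while GAS5 was higher. FBXW7, a ubiquitin ligase subunit, lies 201 bases from MIR4453HG and had 2.22 against 2.09 FPKM, a ratio of 1.06 (0.932 to 1.21), with no detectable difference. WDR81 beside MIR22HG had 9.12 against 7.15 FPKM. TRAF7 beside SNHG19 had 16.9 against 17.5 FPKM, a ratio of 0.964 (0.897 to 1.04). Its interval included 1 but lay below the depth ratio of 1.05. These are values of 1 library per group, with no test and no explanation.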
